A study of Mus musculus with 23 samples.

Results

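The dystrophin glycoprotein complex was followed through 9 genes, Dmd, Utrn, Dag1, Sgca, Sgcb, Sgcd, Sntb1, Dtna and Nos1, taken by gene symbol from the count tables of quadriceps (12831 genes) and epididymal fat (16962 genes). All 9 were in both tables, and none was removed by the filter on low counts. Male C57BL/6J mice, 8 weeks old at surgery, received either a sham operation (no tumor) or pancreatic cancer cells placed in the pancreas. KPC mice carried a line grown out of a pancreatic tumor, whose male donor mouse had oncogenic alleles, Trp53 among them, under Pdx1-Cre, as 1 clone transfected with a CRISPR/Cas9 plasmid without a targeting guide. KPC IL6KO mice carried 1 clone of the same line in which Il6 had been edited, so that the tumor cells, and not the host tissues, lacked IL-6. All mice were euthanized when the KPC group was wasted. Muscle libraries, 1 per mouse, numbered 3 in the no tumor group and 4 in each tumor group, and fat libraries numbered 4 in every group. Fat libraries carry other replicate numbers than muscle libraries and were taken to come from other mice. Each tumor group stands for 1 clone, so clone and genotype cannot be told apart.

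Dystrophin ties the actin cytoskeleton of the muscle fibre to dystroglycan in the membrane, and dystroglycan binds laminin in the basement membrane through sugar chains on its extracellular part. The sarcoglycans form a subcomplex that holds dystroglycan in place, while dystrobrevin and the syntrophins form a cytoplasmic arm that anchors neuronal nitric oxide synthase. Utrophin is a close relative of dystrophin that is found at the neuromuscular junction and in many cell types outside the fibre. Loss of dystrophin or of a sarcoglycan causes muscular dystrophy.

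Promoter sequence is shown for the dystrophin gene, because it has more than 1 start and the counts sum over all of them, and for Dag1, the membrane partner that rose beside it. Each is the 250 bases before a RefSeq start in GRCm38.p6, 5′ to 3′ on the strand of the gene. Capitals mark matches, on either strand, to the E-box CANNTG bound by myogenic factors, to the CArG box of serum response factor or to the MEF2 site.
Dmd, most upstream start, chrX:82948620-82948869, plus strand: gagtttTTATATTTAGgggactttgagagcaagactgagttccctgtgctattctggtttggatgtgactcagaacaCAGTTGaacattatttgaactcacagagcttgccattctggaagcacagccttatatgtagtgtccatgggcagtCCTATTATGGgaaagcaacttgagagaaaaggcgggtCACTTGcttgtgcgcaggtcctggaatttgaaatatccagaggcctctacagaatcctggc
Dmd, internal start, chrX:85048045-85048294, plus strand: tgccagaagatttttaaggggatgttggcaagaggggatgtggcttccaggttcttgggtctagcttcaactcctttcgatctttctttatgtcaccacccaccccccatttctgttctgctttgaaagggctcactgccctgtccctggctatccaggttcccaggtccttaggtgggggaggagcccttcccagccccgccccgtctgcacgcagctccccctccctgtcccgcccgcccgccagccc
Dag1, most upstream start, chr9:108263959-108264208, minus strand: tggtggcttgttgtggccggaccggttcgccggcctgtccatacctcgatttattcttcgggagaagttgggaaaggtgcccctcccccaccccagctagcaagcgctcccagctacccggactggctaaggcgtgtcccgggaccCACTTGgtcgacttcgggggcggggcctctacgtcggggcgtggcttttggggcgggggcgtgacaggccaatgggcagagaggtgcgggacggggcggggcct
The upstream Dmd window held 2 E-boxes, 173 and 61 bases before the start, a CArG box 98 bases before it and a MEF2 match 244 bases before it. The internal Dmd window held none of these, and the Dag1 window held 1 E-box, 104 bases before the start. Among 32851 mouse promoters of this length, 66.2% held an E-box, 1.47% a CArG box and 2.92% a MEF2 match. The STAT motif TTCNNNGAA, found in 7.02% of promoters, was in none of these 3 windows, and these matches are letters in a window, not measured sites. The internal start lies 2099.4 kb downstream of the first, and 17 of the 79 exons and 36.8% of the 14910 bases of the longest transcript follow it. A Dmd count therefore adds full-length and short forms that share those exons.

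Depth was 19259763 to 74907810 counts per library in muscle and 26306377 to 56308545 in fat, so that 3 counts, taken as the limit of detection, corresponded to 0.0462 to 0.154 and 0.0474 to 0.123 CPM, the count scaled to a common library size. The lowest count of any of the 9 genes was 21 in muscle and 4 in fat. Levels below are CPM after TMM scaling, which corrects library totals for the makeup of the RNA, and their errors are SD over mice. The 9 marker genes of muscle fibres summed to 160700 to 198300 CPM in no tumor quadriceps, 124100 to 142800 in KPC and 183300 to 199800 in KPC IL6KO. Every KPC library was below all others, and 3 of the 9 markers, Acta1, Tnnc2 and Mylpf, were called down in KPC against no tumor. The part of this difference in the values that follow was not tested. In quadriceps the 5 epididymis markers were not in the table and were not analysed here. The fat libraries held 742 to 77410 CPM of epididymis markers beside 916 to 17180 CPM of adipocyte markers. A lower level in bulk tissue cannot be told apart between fewer cells of a type and less RNA per cell.

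The first comparison asked how the complex differed in wasting KPC muscle. In quadriceps of KPC mice Nos1, Dmd, Dag1 and Sgcb rose, Sgcd, Utrn and Sntb1 fell, and Sgca and Dtna did not pass the call, which needed a false discovery rate (FDR) ≤ 0.05 together with a fold change (FC) ≥ 1.5 by edgeR's quasi-likelihood test. Of all genes tested in this comparison 26.7% were called up and 29% down, against 4 and 3 of the 9. The values of the KPC mice lay wholly outside those of the no tumor mice for 7 of the 9, compared with 65.3% of all genes. The median log2 FC of the 9 was 0.56, where that of all genes was -0.03. The members thus went both ways in a muscle transcriptome that also moved both ways, and nothing particular to the complex is read from these shares. Scaling by library totals alone moved the median of all genes to -0.24 and the calls to 2622 up and 4499 down, from 3428 and 3719, and left every direction among the 9 as it was.

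**Figure D1:**
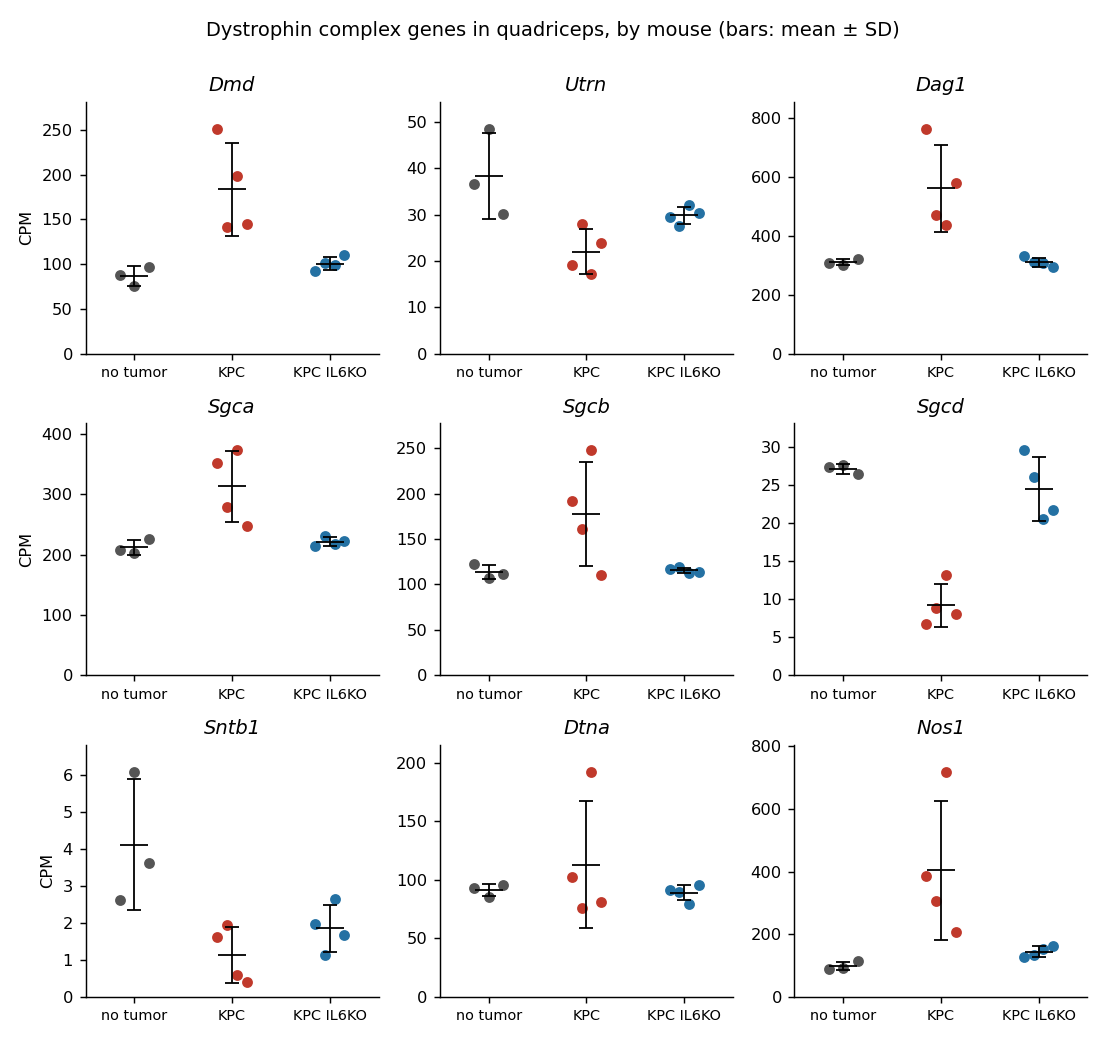
Level of each of the 9 genes in quadriceps (y axis, CPM, linear from 0) in no tumor, KPC and KPC IL6KO mice (x axis). Points are mice and bars are mean ± SD; the KPC points lie above both other groups for Dmd, Dag1, Sgca and Nos1 and below both for Sgcd.

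Dystrophin itself is encoded by Dmd (chrX:82948870-85206141, GRCm38). The level of its RNA was 87.5, 75.4 and 97.1 CPM in no tumor muscle, 251, 141, 198 and 145 in KPC and 92.0, 101, 98.7 and 110 in KPC IL6KO. Every KPC mouse lay above every other mouse. KPC was 2.12-fold higher than no tumor (log2 FC 1.09, SE 0.19, edgeR FDR = 0.000406), and the reads behind it could come from any form of the gene. These counts measure RNA and not protein. By antibody staining of quadriceps the authors reported the opposite for the protein, a weaker dystrophin signal in KPC mice and a normal one in KPC IL6KO mice.

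Utrophin, the relative of dystrophin, moved the other way. Utrn (chr10:12382188-12869365) was at 36.6, 48.6 and 30.2 CPM without tumor, at 19.1, 28.0, 17.1 and 23.8 in KPC and at 29.5, 27.7, 32.0 and 30.3 in KPC IL6KO. The KPC mice lay below all no tumor mice, while the highest of them, KPC 2, overlapped the KPC IL6KO mice. The fall against no tumor was 1.75-fold (log2 FC -0.81, SE 0.18, edgeR FDR = 0.00209). Markers of other cell types that use utrophin were read in the same libraries. The summed endothelial markers were 196 to 264 CPM without tumor, 163 to 276 in KPC and 232 to 303 in KPC IL6KO, with 2 of 5 genes called down in KPC and the KPC range enclosing that without tumor. The summed Schwann cell markers were 95.4 to 179, 34.2 to 87.0 and 63.8 to 83.9 CPM, below every no tumor library in both tumor groups, with 4 of 6 genes called down in KPC and 0 in KPC IL6KO. The summed fibroblast markers were 819 to 888, 170 to 278 and 421 to 664 CPM. Those of smooth muscle were 158 to 197, 44.4 to 79.5 and 140 to 154 CPM. Both sums were lower in every KPC library than in all others, with all genes of both lists called down in KPC. The genes of each list fell unequally in KPC against no tumor. The log2 FC ran from -5.17 (Col1a1) to -0.7 (Dcn) for fibroblasts and from -3.52 (Cnn1) to -0.69 (Tagln) for smooth muscle. The summed adipocyte markers were 516, 1330 and 293 CPM without tumor, in the same order as Utrn, 469, 659, 169 and 121 in KPC and 137 to 308 in KPC IL6KO, with 1 of 5 genes called down in KPC. In the tumor groups the orders differed. KPC 2 was highest for both, but KPC 4 was lowest for the adipocyte markers and above KPC 1 and KPC 3 for Utrn. In KPC IL6KO replicate 2 was lowest for both, but replicate 1 was highest for the markers and replicate 3 for Utrn. Utrn was more abundant in fat (59.5 to 339 CPM), and its log2 FC in muscle was -0.60 without no tumor 2, the library highest in both. The part of these cells in the Utrn value was not tested.

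Dystroglycan, the laminin receptor of the complex, is encoded by Dag1 (chr9:108204634-108263958), which makes both of its subunits from 1 precursor. It measured 308, 302 and 322 CPM without tumor, 764, 470, 436 and 581 in KPC, and 332, 310, 307 and 295 in KPC IL6KO. Its spread without tumor was small (311 ± 9.94, n = 3), and all KPC mice were above the other mice. The rise was 1.81-fold (log2 FC 0.86, SE 0.17, edgeR FDR = 0.000885).

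The sarcoglycans are single-pass membrane proteins that work as a unit, yet their transcripts parted. Sgca (chr11:94962791-94976327), the α subunit made in striated muscle, was at 208, 202 and 226 CPM without tumor, 352, 279, 373 and 247 in KPC and 214, 231, 217 and 222 in KPC IL6KO. All KPC mice exceeded the others, but the 1.48-fold difference (log2 FC 0.56, SE 0.14, edgeR FDR = 0.00360) fell just short of the fold needed. It passed, at log2 FC 0.59 to 0.66, in 7 alternatives, with DESeq2, RLE scaling, a replicate block or only these 2 groups in the fit and without no tumor 3, KPC 2 or KPC 4.

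Sgcb (chr5:73632749-73647790), the β subunit, was at 122, 107 and 112 CPM without tumor, 192, 161, 248 and 111 in KPC and 117, 119, 113 and 114 in KPC IL6KO. The mouse KPC 4 lay among the controls and the other 3 above them. The call of Sgcb (log2 FC 0.64, SE 0.21, edgeR FDR = 0.0159) was lost without KPC 3 (log2 FC 0.44), without no tumor 2 (FDR = 0.0566) and with library totals (FDR = 0.0645).

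The δ subunit gene Sgcd (chr11:46896253-47988969), which encodes the sarcoglycan that pairs with β, ran against both. It was at 27.4, 27.6 and 26.4 CPM without tumor, at 6.76, 8.85, 13.2 and 8.04 in KPC and at 29.6, 26.1, 20.5 and 21.8 in KPC IL6KO. The highest KPC mouse was below the lowest mouse of either other group. The fall was 2.94-fold (log2 FC -1.56, SE 0.20, edgeR FDR = 4.90e-05), the smallest FDR among the 9. Sgcd is also made in smooth muscle, whose 5 markers were all called down and summed to 158 to 197 CPM without tumor, 44.4 to 79.5 in KPC and 140 to 154 in KPC IL6KO. Their part in the Sgcd value was not tested.

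The cytoplasmic arm held the largest rise in log2 FC among the 9, that of Nos1, as well as a large fall, that of Sntb1. Nos1 (chr5:117781032-117958840) encodes neuronal nitric oxide synthase, which makes nitric oxide at the fibre membrane. It was at 90.2, 92.6 and 114 CPM without tumor, 386, 307, 718 and 206 in KPC and 127, 134, 154 and 163 in KPC IL6KO. All KPC mice exceeded all others, with KPC 3 far above the rest. The rise was 4.09-fold (log2 FC 2.03, SE 0.34, edgeR FDR = 0.000277), and without KPC 3 the log2 FC was 1.60.

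Sntb1 (chr15:55636388-55906949), which encodes β1-syntrophin, an adapter that binds dystrophin and dystrobrevin, was at 2.63, 6.09 and 3.64 CPM without tumor, 1.62, 1.95, 0.589 and 0.395 in KPC and 1.97, 1.14, 2.66 and 1.66 in KPC IL6KO. It was the scarcest of the 9 in muscle, and the KPC mice lay below all no tumor mice. The fall was 3.61-fold (log2 FC -1.85, SE 0.51, edgeR FDR = 0.00655), and it was -1.45 without no tumor 2 and -1.64 without KPC 3, where Sgcd fell further (-1.55 and -1.78). Adipocyte markers moved in part with Sntb1, which was 4.20 to 37.8 CPM in fat. No tumor 2 was the highest library in muscle for both, and the KPC mice had the same order in both. The other groups did not. No tumor 1 was above no tumor 3 for the adipocyte markers (516 and 293 CPM) and below it for Sntb1. In KPC IL6KO replicate 2 was lowest for both, but replicate 1 was highest for the markers (308 CPM) and replicate 3 for Sntb1. Their part in the Sntb1 value was not tested. Dtna, on chromosome 18, encodes α-dystrobrevin, the scaffold of the arm. Its levels were 92.8, 85.5 and 95.6 CPM without tumor, 102, 75.8, 192 and 81.3 in KPC and 91.6, 89.5, 79.6 and 95.2 in KPC IL6KO. The groups overlapped, only KPC 3 stood apart, and the difference did not pass (log2 FC 0.30, 95% interval -0.28 to 0.88, edgeR FDR = 0.324). Without KPC 3 the Dtna value was -0.08. KPC 3 also had the highest summed macrophage markers of the KPC libraries, 92.3 CPM where the others had 16.2 to 58. That sum was carried by Cd68, whose highest KPC value was 79.5 CPM (2.90 to 3.69 without tumor), while Adgre1 (log2 FC -1.54) and Mrc1 (-0.96) of the same list were called down and Csf1r was not called. Neutrophil markers were highest in KPC 3 as well, at a sum of 20.3 CPM against 3.76 to 9.23 in the other KPC libraries, 0.359 to 0.658 without tumor and 2.05 to 3.74 in KPC IL6KO, and all 3 of them (S100a8, S100a9 and Csf3r) were called up in KPC. The part of these cells in the Dtna and Nos1 values was not tested.

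**Figure D2:**
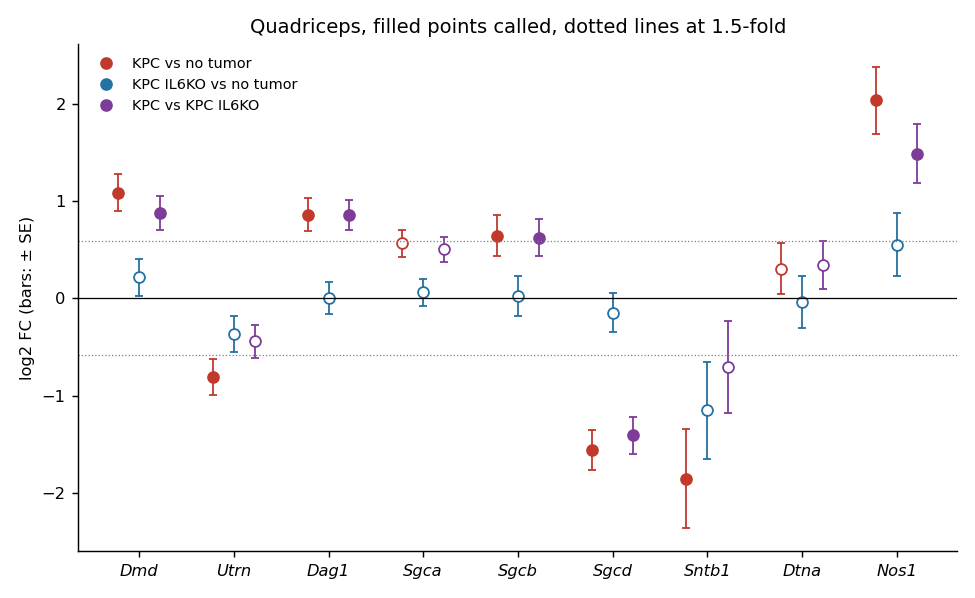
Log2 FC of each gene in quadriceps (y axis) for KPC against no tumor, KPC IL6KO against no tumor and KPC against KPC IL6KO. Bars are ± SE, filled points were called and dotted lines mark an FC of 1.5; the KPC IL6KO points lie between -0.37 and 0.55 apart from Sntb1 at -1.15, which was not called.

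The second comparison asked whether muscle of mice with tumors lacking IL-6 differed from muscle without tumor. None of the 9 was called in KPC IL6KO quadriceps, and 0% of all genes were called by the same edgeR test. The count for the 9 was also 0 by DESeq2 and by the edgeR likelihood ratio test, which called 93 and 95 genes in all. At an unadjusted p under 0.05, 1 of the 9 and 887 of all genes passed. That 1 gene was Sntb1 (log2 FC -1.15, SE 0.50, edgeR FDR = 0.663). The groups did not overlap for 1 of the 9, Nos1, compared with 15.5% of all genes. Its 4 KPC IL6KO mice lay just above the 3 no tumor mice, and the difference did not pass (log2 FC 0.55, 95% interval -0.16 to 1.26, edgeR FDR = 0.880).

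The intervals show which differences these mice could still hide. For Dmd the 95% interval of the log2 FC between KPC IL6KO and no tumor ran from -0.20 to 0.63, and for Dag1 from -0.36 to 0.37. For Sgca it was -0.24 to 0.36 and for Sgcb -0.43 to 0.47. Each of these 4 intervals ended below the log2 FC measured for the same gene in KPC. The margin was small for Sgca and Sgcb. With library totals both KPC values (0.35 and 0.43) fell inside these intervals, which were fitted with TMM scaling, as did that of Sgcb without KPC 3 (0.44), and the KPC intervals were 0.26 to 0.87 and 0.19 to 1.10. The interval of Sgcd, -0.59 to 0.30, ended far above its value in KPC, whereas those of Utrn, -0.77 to 0.03, and Sntb1, -2.24 to -0.06, came close to or included it.

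The third comparison set the tumor groups against each other. Against KPC IL6KO, Dmd (log2 FC 0.87, edgeR FDR = 0.000889), Dag1 (0.85, FDR = 0.000465), Sgcb (0.62, FDR = 0.0119) and Nos1 (1.49, FDR = 0.000993) were higher in KPC muscle and Sgcd was lower (-1.41, FDR = 6.05e-05). These were 4 called up and 1 down of 9, where 26.4% of all genes were called up and 27.3% down. Groups did not overlap for 5 of the 9, Dmd, Dag1, Sgca, Sgcd and Nos1, and for 62% of all genes. Utrn (log2 FC -0.44, SE 0.17, edgeR FDR = 0.0369) and Sgca (0.50, SE 0.13, FDR = 0.00422) passed the FDR but not the FC. Sntb1 (-0.70, SE 0.47, FDR = 0.206) and Dtna (0.34, SE 0.24, FDR = 0.231) passed neither. The call of Sgcb was lost without KPC 3 (0.42), without KPC 1 (0.58), with a replicate block (0.57), with only these 2 groups in the fit (0.58) and with library totals (0.48). This comparison shares its KPC mice with the first, so the 2 sets of values are not independent.

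Because counts of 2 genes in 1 library share its depth and scaling, ratios were taken within libraries. The Utrn count per Dmd count was 0.418, 0.644 and 0.311 without tumor, 0.0762, 0.198, 0.0866 and 0.164 in KPC and 0.320, 0.274, 0.324 and 0.275 in KPC IL6KO. The KPC mice were below all others and the other groups overlapped. The mean log2 ratio was -1.19 ± 0.53 (n = 3), -3.05 ± 0.68 (n = 4) and -1.75 ± 0.13 (n = 4). The difference between KPC and no tumor, -1.86, had p = 0.0571 in a 2-sided exact permutation test, which is the smallest that 4 against 3 mice allow. Between KPC and KPC IL6KO it was -1.30 (exact permutation p = 0.0286, again the smallest possible), and between KPC IL6KO and no tumor -0.56 (exact permutation p = 0.171). Adjusted over the 3 comparisons the p-values were 0.0857, 0.0857 and 0.171. After this adjustment the exact permutation test could not reach 0.05 with groups of these sizes.

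The ratios between sarcoglycans are given as descriptions. Sgcd per Sgca was 0.132, 0.137 and 0.117 without tumor, 0.0192, 0.0317, 0.0355 and 0.0325 in KPC, and 0.138, 0.113, 0.0946 and 0.0980 in KPC IL6KO. Every KPC ratio was below every other ratio. Sgcb per Sgca was 0.589, 0.531 and 0.496 without tumor, 0.544, 0.575, 0.665 and 0.448 in KPC, and 0.543, 0.516, 0.522 and 0.512 in KPC IL6KO, with the 3 groups overlapping. The proportion of δ to α thus separated KPC from the other mice and that of β to α did not.

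**Figure D3:**
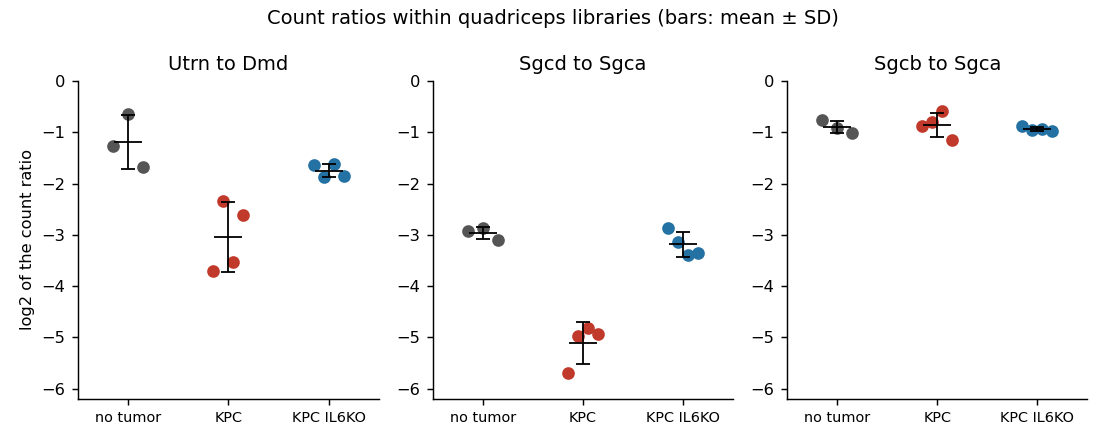
Log2 ratio of the counts of 2 genes within each quadriceps library (y axis) by group (x axis), for Utrn to Dmd, Sgcd to Sgca and Sgcb to Sgca. Points are mice and bars mean ± SD; KPC mice lie below the others in the first and second panels and overlap them in the third.

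Per kilobase of exon, the order of the 9 genes in no tumor muscle was Sgca, Dag1, Sgcb, Nos1, Dtna, Sgcd, Dmd, Utrn and Sntb1. Levels per kilobase were 122 ± 7.16 CPM for Sgca, 50.2 ± 1.61 for Dag1 and 30.1 ± 2.02 for Sgcb. Nos1 (9.55 ± 1.24) and Dtna (9.47 ± 0.54) overlapped, and the other neighbours in this order did not. In KPC muscle Sgca (180 ± 34.2), Dag1 (90.9 ± 23.9) and Sgcb (47.0 ± 15.1) had the highest means, with Nos1 next (39.1 ± 21.5, range 19.9 to 69.4) and overlapping Sgcb (29.3 to 65.4), while Sgcd (2.64 ± 0.80) stood behind Dmd (12.3 ± 3.47). The coefficient of variation between mice, the SD relative to the mean, was larger in KPC muscle than in both other groups for 8 of the 9 genes. The exception was Utrn (22%, against 24.2% without tumor). The libraries as a whole also differed more within KPC. Their chi-square per degree of freedom over all genes was 138 to 331 between KPC libraries and 28.9 to 78.0 between libraries of the other groups. The coefficient of variation of Dag1 was 26.2% in KPC, 3.20% without tumor and 4.92% in KPC IL6KO, and that of Sgcb was 32.2%, 6.72% and 2.35%.

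Genes around the complex were read from lists written with earlier results of these data known, and all counts are for KPC against no tumor quadriceps unless another comparison is named. Of 12 further subunits and close partners, 8 were in the muscle table, of which 2 were called up, 4 down and 2 not, with a median log2 FC of -0.74. This and the next counts stand beside 26.7% of all genes called up, 29% called down and a median of -0.03. Dtnb, β-dystrobrevin, rose from 2.02 ± 0.11 to 9.44 ± 3.45 CPM (log2 FC 2.21, SE 0.31, edgeR FDR = 7.50e-05). Cav3, the muscle caveolin, fell from 52.3 ± 0.95 to 16.6 ± 4.76 CPM (log2 FC -1.66, SE 0.19, FDR = 2.01e-05). Within the dystrobrevins Dtnb rose where Dtna did not pass.

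Sspn and Sgce were added after their values were seen. Sspn, sarcospan, which sits with the sarcoglycans, fell from 102 ± 5.97 to 35.3 ± 11.7 CPM (log2 FC -1.54, SE 0.22, edgeR FDR = 9.13e-05). Sgce, ε-sarcoglycan, found outside striated muscle as well, fell from 8.62 ± 1.07 to 3.70 ± 0.77 CPM (log2 FC -1.22, SE 0.18, FDR = 0.000107). Fibroblast and smooth muscle markers, with the sums given above, were lower in KPC as well. Their part in the Sgce value was not tested.

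On the extracellular side more genes were called down than up. Of 15 laminins, collagens, proteoglycans and integrin subunits, all in the table, 1 was called up, 8 down and 6 not, with a median log2 FC of -1.25, compared with 26.7% and 29% of all genes and a median of -0.03. Hspg2, perlecan, which binds dystroglycan, was the most abundant and fell from 265 ± 25.7 to 84.1 ± 22.1 CPM (log2 FC -1.66, SE 0.19, edgeR FDR = 1.79e-05). Col6a2, a collagen VI chain, fell from 96.5 ± 1.02 to 3.04 ± 0.67 CPM (log2 FC -4.99, SE 0.27, FDR = 3.91e-07), and Lama5, a laminin chain, rose from 55.3 ± 4.05 to 126 ± 66.7 CPM (log2 FC 1.18, SE 0.34, FDR = 0.00859). Fibroblasts are the usual source of such collagens, and their markers were lower as well. All 5 were called down and their sum was 819 to 888 CPM without tumor, 170 to 278 in KPC and 421 to 664 in KPC IL6KO. That sum holds Col1a1 (224 CPM without tumor, log2 FC -5.17) and Col1a2 (313 CPM, -4.07), which are collagens themselves. Pdgfra (-1.13) and Dcn (-0.7) fell less. The part of fibroblasts in these values was not tested.

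Inside the fibre, 14 of 15 cytoskeletal partners were in the table, with 4 called up, 6 down and 4 not, and a median log2 FC of -0.19, compared with 26.7% and 29% of all genes called up and down and a median of -0.03. Flnc, filamin C, which binds sarcoglycans and the Z-disc, rose from 697 ± 25.7 to 5024 ± 707 CPM (log2 FC 2.85, SE 0.17, edgeR FDR = 7.92e-07). Des, the intermediate filament desmin, rose from 3004 ± 522 to 6145 ± 617 CPM (log2 FC 1.03, SE 0.14, FDR = 6.58e-05). Ank2, an ankyrin that helps place dystrophin at the membrane, fell from 45.3 ± 3.61 to 16.4 ± 4.93 CPM (log2 FC -1.47, SE 0.20, FDR = 5.71e-05). Ank3, the other ankyrin listed, rose from 97.2 ± 10.1 to 382 ± 145 CPM (log2 FC 1.97, SE 0.24, FDR = 2.64e-05). It was added after its values were seen.

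Of 17 enzymes that build the laminin-binding sugar chain of dystroglycan, all in the table, 2 were called up, 4 down and 11 not, with a median log2 FC of -0.17, compared with 26.7% and 29% of all genes called up and down and a median of -0.03. Pomk, the kinase that primes the chain, fell from 13.8 ± 0.95 to 1.30 ± 0.85 CPM (log2 FC -3.41, SE 0.37, edgeR FDR = 1.42e-05). Pomt2, a mannosyltransferase at the first step, rose from 12.4 ± 0.33 to 23.6 ± 7.65 CPM (log2 FC 0.93, SE 0.20, FDR = 0.00153). B3galnt2, the most abundant of them, was at 96.3 ± 4.29 and 73.6 ± 51.7 CPM and did not pass (log2 FC -0.39, SE 0.39, FDR = 0.392), although without KPC 3 it was called down at -0.96.

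Of 13 membrane repair genes 0 were called up, 8 down and 5 not by edgeR, with a median log2 FC of -0.98, where 26.7% of all genes were called up, 29% down and the median was -0.03. Of the 8, Anxa1, Anxa2, Anxa5, Ptrf, Ehd2 and Myof are also made widely outside the fibre, and the fibroblast and smooth muscle markers, 5 of 5 called down in each list with the sums given above, moved with them. Their part in the repair list was not tested. Anxa5, an annexin that gathers at membrane lesions, fell from 34.6 ± 7.56 to 9.48 ± 1.65 CPM (log2 FC -1.87, SE 0.16, edgeR FDR = 3.77e-06). Dysf, dysferlin, was at 81.7 ± 7.77 and 119 ± 21.1 CPM and passed the FDR but not the FC (log2 FC 0.54, SE 0.14, FDR = 0.00446). Dysf was called up, and the repair list had 1 called up, without no tumor 3 (0.61) or without KPC 2 (0.61). Anxa6, the most abundant, did not pass (log2 FC 0.15, SE 0.13, FDR = 0.310), and its sign turned with library totals (-0.06). The other nitric oxide synthases did not follow Nos1. Nos2, the inducible enzyme, fell from 5.45 ± 1.30 to 0.952 ± 0.75 CPM (log2 FC -2.52, SE 0.47, FDR = 0.000604), and Nos3, the endothelial enzyme, was at 22.5 ± 6.91 and 21.7 ± 3.25 CPM (log2 FC -0.06, SE 0.19, FDR = 0.802), a value whose sign turned to 0.21 without no tumor 2 and 0.02 without KPC 1.

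**Figure D4:**
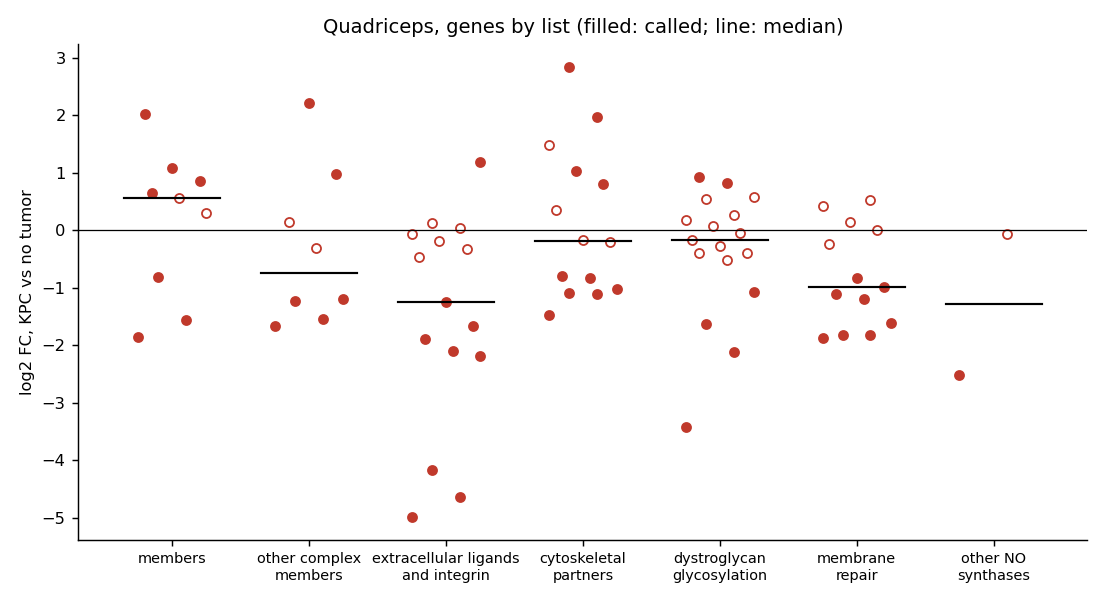
Log2 FC of KPC against no tumor in quadriceps (y axis) for the 9 genes and 6 lists of related genes (x axis). Each point is a gene, filled when called, and lines are medians; the extracellular list reaches -4.99 (Col6a2) and the cytoskeletal list 2.85 (Flnc).

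In KPC IL6KO against no tumor quadriceps 0 genes of these 6 lists were called, where 0% of all genes were called. In KPC against KPC IL6KO the calls were 2 up and 4 down of 8 further subunits, 1 and 8 of 15 extracellular genes, 5 and 6 of 14 cytoskeletal partners, 2 and 5 of 17 glycosylation enzymes, 0 and 7 of 13 repair genes and 0 and 1 of the other synthases, where 26.4% of all genes were called up and 27.3% down. Pomk was at 13.7 ± 1.77 CPM in KPC IL6KO, Cav3 at 54.6 ± 4.14, Sspn at 99.9 ± 5.90 and Flnc at 802 ± 137. For these 4 genes the KPC IL6KO and no tumor mice overlapped, while Col6a2, at 58.4 ± 20.4 CPM, lay below all no tumor mice without being called (log2 FC -0.72, SE 0.24, edgeR FDR = 0.478). Among the list genes whose levels are given above, Sgce and Anxa5 also lay wholly below the no tumor mice, and Dtnb and B3galnt2 wholly above them. None of these was called, and the same 2 groups did not overlap for 15.5% of all genes.

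Likeness of pattern was read as Pearson's r of log2 CPM over the 11 quadriceps libraries among the 10520 genes whose mean log2 CPM was 1 or more, as a description. The 11 points share 3 groups, so r mostly reflects the difference between groups. The genes most like Dmd were Vapa (r = 0.990), Mef2a (0.990), Kpna1 (0.988), Eif1ax (0.987) and Anp32e (0.986). Those most like Utrn were Nbea (0.984), Apol6 (0.976), Adcy6 (0.972), Ptprd (0.971) and Esyt1 (0.969). Those most like Nos1 were Eri3 (0.993), Cdkn2aipnl (0.991), E2f4 (0.987), Rab35 (0.985) and Mars (0.985). Among the members, r with Dmd was 0.953 for Sgca, 0.913 for Nos1 and -0.907 for Utrn.

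In epididymal fat the complex had another makeup. Per kilobase, Dag1 came first in no tumor fat (41.1 ± 5.39 CPM, n = 4) and Utrn second (10.6 ± 8.39), and Utrn was above Dmd (2.31 ± 0.96). Dmd was at 25.1, 31.7, 25.7 and 55.6 CPM without tumor, 17.1, 24.3, 18.8 and 25.6 in KPC and 18.9, 27.3, 25.3 and 61.8 in KPC IL6KO. The groups overlapped, and the highest mouse of each of the no tumor and KPC IL6KO groups was replicate 8. Utrn was at 109, 339, 59.5 and 121 CPM without tumor, 83.5, 82.9, 70.4 and 88.2 in KPC and 131, 98, 236 and 163 in KPC IL6KO. The KPC mice lay below the KPC IL6KO mice and within the range of the no tumor mice.

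Dag1 in fat was at 294, 256, 255 and 212 CPM without tumor, 217, 216, 205 and 237 in KPC and 253, 260, 254 and 197 in KPC IL6KO, with all groups overlapping. Sgca, scarce outside striated muscle, was at 0.491, 2.91, 0.349 and 8.00 CPM without tumor, 0.496, 0.258, 0.741 and 0.228 in KPC and 2.38, 0.377, 0.832 and 9.05 in KPC IL6KO. Here too replicate 8 was highest in both groups other than KPC. Nos1 was at 0.164, 5.47, 3.35 and 8.08 CPM without tumor, 0.350, 0.573, 1.28 and 0.943 in KPC and 0.515, 0.309, 10.3 and 5.62 in KPC IL6KO. Sgcb ranged from 15.1 to 38.2 CPM over the 12 libraries, Sgcd from 3.42 to 36.4, Sntb1 from 4.20 to 37.8 and Dtna from 4.12 to 24.1, with no group apart from the others in these 4 genes except Sntb1, whose KPC mice (5.82 to 10.2) lay below the no tumor mice (11.1 to 37.8).

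Markers of other cell types differed widely between the fat libraries. Smooth muscle markers summed to 502, 2583, 483 and 5130 CPM without tumor, 185 to 383 in KPC and 2199, 640, 380 and 4706 in KPC IL6KO. Skeletal muscle fibre markers summed to 9.99, 120, 10.2 and 317 CPM without tumor, 3.18 to 6.56 in KPC and 112, 195, 410 and 2685 in KPC IL6KO. The muscle lists were highest in replicate 8 of their groups, the same mice that were highest for Dmd, Sgca and Dtna, and low in every KPC mouse. Adipocyte markers summed to 2684, 17180, 916 and 5613 CPM without tumor, 8243, 3432, 1941 and 1561 in KPC and 2551, 3309, 10160 and 4857 in KPC IL6KO. They were highest in no tumor 6 and KPC IL6KO 7, the mice of those groups that were also highest for Utrn, Sntb1 (37.8 and 28.9 CPM) and Sgcd (36.4 and 25.3). Epididymis markers summed to 63700, 13490, 59650 and 17910 CPM without tumor, 38130, 55230, 38220 and 37360 in KPC and 742, 77410, 15150 and 10140 in KPC IL6KO. Without tumor they were lowest in replicates 6 and 8, the mice highest for Dmd, Utrn, Sgca and Nos1, while Dag1 and Sntb1 had another order. In KPC IL6KO they were lowest in replicate 5, which was also lowest of its group for Dmd. The part of these cells in the fat values was not tested.

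None of the 9 was called in fat in any of the 3 comparisons by edgeR's quasi-likelihood test, DESeq2 or the likelihood ratio test, where the quasi-likelihood test called 0% of all genes. Over all genes DESeq2 called 364 up and 221 down in KPC against no tumor, 281 and 4 in KPC IL6KO against no tumor and 19 and 106 in KPC against KPC IL6KO, and the likelihood ratio test 268 and 145, 209 and 0, and 7 and 59. In KPC against no tumor all 9 log2 FC were below 0, from -2.77 for Sgca to -0.18 for Sgcb, where the median of all genes was -0.10, and the FDR ranged from 0.383 to 0.835. The Sgca value was -1.53 without no tumor 8 and -1.84 with a replicate block, and that of Sgcb turned to 0.05 without no tumor 6. At an unadjusted p under 0.05, 2 of the 9 passed in KPC against no tumor (Sgca and Sntb1), 0 in KPC IL6KO against no tumor and 1 in KPC against KPC IL6KO (Sgca), compared with 2061, 1584 and 1062 of all genes. The groups did not overlap for 1, 0 and 1 of the 9, compared with 10.9%, 2.01% and 4.33% of all genes. The lowest FDR was 0.756 in KPC IL6KO against no tumor and 0.734 in KPC against KPC IL6KO.

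**Figure D5:**
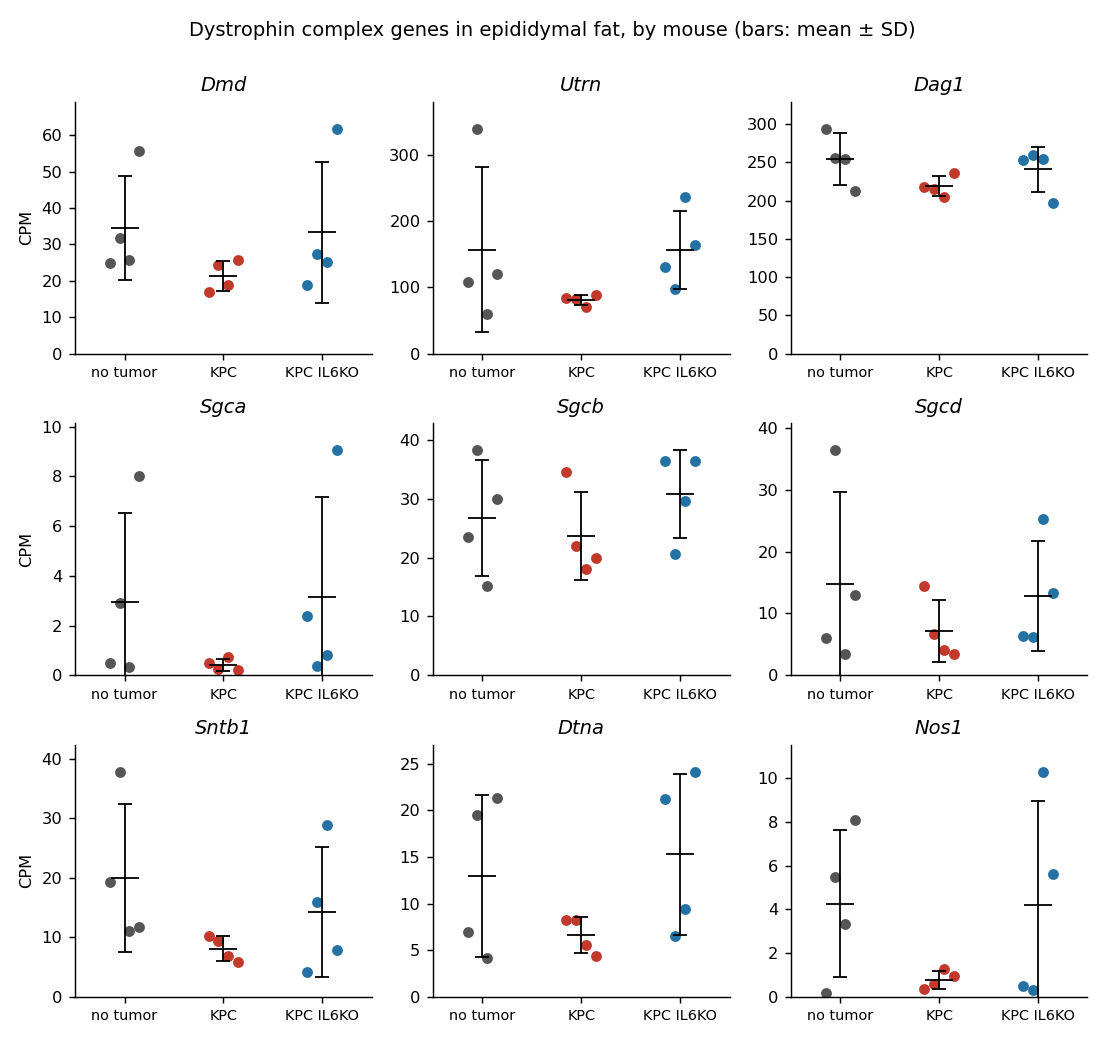
Level of each of the 9 genes in epididymal fat (y axis, CPM, linear from 0) by group (x axis: no tumor, KPC, KPC IL6KO), with points for mice and bars for mean ± SD. Bars that would run below 0 are cut at 0. The no tumor and KPC IL6KO mice are widely spread, with single Sgca values of 8.00 and 9.05 CPM, and the KPC mice lie closer together for most genes, less so for Sgcb and Sgcd.

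Whether muscle and fat responded differently to KPC was asked of the 12599 genes that both tables list, by an interaction term fitted to the 23 libraries together. Of these genes 36.9% were called, and 4 of the 9. The response of Dmd was higher in quadriceps than in fat by 1.68 on the log2 scale (SE 0.46, edgeR FDR = 0.00736), that of Dag1 by 0.96 (SE 0.22, FDR = 0.00228) and that of Nos1 by 4.40 (SE 1.27, FDR = 0.0104). The Nos1 difference includes a fat log2 FC of -2.44 that was not called (SE 1.18, edgeR FDR = 0.447). Its fat levels were low, at 0.164 to 8.08 CPM without tumor and 0.350 to 1.28 in KPC. For Sgca the difference was 3.28 (SE 1.21, FDR = 0.0382), and it was 1.94 (FDR = 0.170) without no tumor 8 of the fat libraries. Utrn (0.03, SE 0.53, FDR = 0.969), Sgcb (0.71, SE 0.39, FDR = 0.159), Sgcd (-0.63, SE 0.84, FDR = 0.577), Sntb1 (-0.65, SE 0.81, FDR = 0.549) and Dtna (1.18, SE 0.66, FDR = 0.168) did not pass. With 1 library left out the Sgcd difference ranged from -1.58 to -0.04. Muscle and fat were taken to come from different mice, because their replicate numbers differ. The authors write of 4 animals per group for both tissues, which does not settle whether mice were shared. If they were, the fit ignored that pairing. Muscle and fat were processed apart, so this comparison joins tissue and processing.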

How the data were processed

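RNA of quadriceps and epididymal fat was sequenced in pairs of reads, which the authors aligned with STAR to mm10 and assigned to genes with featureCounts 1.5.1. The deposited unit is the count of uniquely mapped reads per gene, without normalization, in 1 table per tissue. The rule by which low genes were dropped before deposit, and whether counting used strand, are not given in the sources used here. The sources differ on the library kit. The authors removed 1 no tumor muscle library, which was not analysed here.

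Groups came from sample titles. Analysis used R 4.3.3, edgeR 4.0.16 and DESeq2 1.42.0, with scipy 1.17.1 for exact permutation tests. After TMM scaling, 1 edgeR quasi-likelihood model per tissue held its 3 groups, with p-values adjusted by Benjamini-Hochberg over all genes. filterByExpr removed 0 genes. SE was |log2 FC|/√F. A call needed FDR ≤ 0.05 and FC ≥ 1.5. The pipeline was tested on simulated data. CPM per kilobase used GENCODE exons (GRCm38), and promoters came from RefSeq. No 2 libraries of a group agreed within counting noise (chi-square per degree of freedom at least 28.9 in muscle and 84.7 in fat).

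The 9 genes and all lists were chosen with earlier results of these data known. The genes named were the 9, and per list the most abundant gene, the highest and lowest log2 FC in KPC muscle and any gene called in KPC IL6KO muscle, and for Dmd, Utrn and Nos1 the 5 genes most like them. Some genes that this rule names are not reported here. Alternatives were DESeq2, the likelihood ratio test, no filter, at least 10 counts in every library, RLE, only the 2 groups compared, a replicate block, leaving out each library and, for the ratio, counts plus 1. Scaling by library totals was added after seeing the data.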

Additional observations from a re-analysis of the deposited data

Results flagged for a closer look

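The Dag1 level of KPC IL6KO 8 in fat, 197 CPM, stood apart from the other mice of its group, of which the nearest was at 253 and the farthest at 260 CPM. The gap was 0.885 of the range of the group. It was the 1 such value among 45 groups of 4 mice examined over both tissues, and chance alone gives about 1 in 20.

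The difference between the KPC response in quadriceps and in fat passed the test for Dmd (1.68 on the log2 scale), Dag1 (0.96), Sgca (3.28) and Nos1 (4.40), in each case with a higher value in muscle. The Sgca call was lost with a replicate block (FDR = 0.115 by edgeR) and without any of 9 single libraries, among them no tumor 8 of the fat libraries (1.94, FDR = 0.170).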

How the results depend on the processing

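The counts of the 9 genes called stayed within 1.5 times of those reported under every alternative run, at 6 to 8 in KPC against no tumor muscle, 4 to 6 in KPC against KPC IL6KO muscle, 3 to 4 between tissues and 0 elsewhere. The Utrn to Dmd ratio kept its direction (-2.10 to -1.58, -0.80 to -0.28 and -1.53 to -1.08 with 1 library left out). Replicate numbers were not treated as pairs in the main fit. The correlation of same-numbered libraries ran from -0.155 to 0.265 in muscle and -0.539 to 0.65 in fat. Whether same-numbered fat libraries shared a batch was not tested. With a replicate block the counts called were 8, 0 and 4 in muscle, 0 in fat and 3 between tissues, and the ratio differences were -2.0, -0.52 and -1.30.

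Values that changed sign were near 0 or rested on 1 library, and the cause was not tested. With library totals, KPC IL6KO against no tumor muscle gave -0.072 for Dag1, -0.011 for Sgca and -0.054 for Sgcb, and KPC against no tumor gave -0.059 for Anxa6. With a replicate block Dag1 gave -0.003, Dtna 0.029 and the Utrn difference between tissues -0.13. With 1 library left out, KPC against no tumor muscle ranged from -0.08 to 0.45 for Dtna and -0.24 to 0.21 for Nos3, and KPC against KPC IL6KO from -0.043 to 0.49 for Dtna. KPC IL6KO against no tumor ranged from -0.03 to 0.028 for Dag1, -0.02 to 0.07 for Sgcb and -0.083 to 0.013 for Dtna. In fat Sgcb ranged from -0.42 to 0.047, and the Utrn difference between tissues from -0.67 to 0.30. The Sgca difference between tissues also missed the FDR with the block (2.46, FDR = 0.115) and without any of 9 single libraries. Sgcb in KPC against KPC IL6KO lost its FC with library totals (0.48), the block (0.57), only those groups (0.58) and without KPC 1 (0.58).

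Depth limits Sntb1 in muscle and Sgca and Nos1 in fat most, where levels were lowest. The common variation between mice was 22.7% in muscle and 63.5% in fat.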
